A study of Homo sapiens with 6 samples.

Results

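The ISG15 conjugation machinery was followed in irradiated and untreated breast cancer xenografts through 6 genes taken by symbol from a table of 60606, namely the modifier ISG15, its activating enzyme UBA7, its conjugating enzyme UBE2L6, the ligase HERC5, the related protein HERC6 and the protease USP18. RNA came from 3 irradiated and 3 control tumors that grew under the skin of NSG mice (NOD/SCID/IL2Rγ-null, which lack T cells, B cells and natural killer cells) from wild-type MDA-MB-231 cells, a human triple-negative breast cancer line, injected with Matrigel. The irradiated tumors were given 10 Gy of X-rays locally in 1 fraction once they had grown to about 800 mm3, and were taken 3 days afterwards, and the controls were left unirradiated. The labels record no volume or collection time for the controls and do not say that each tumor came from its own animal, so the p-values speak of these samples' spread. The model has human tumor cells in mouse stroma and vessels, without adaptive immune cells.

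ISG15 is a ubiquitin-like protein that interferon-treated cells make in large amounts and attach to other proteins. UBA7 activates ISG15, UBE2L6 takes it over, and in human cells HERC5 is the main ligase that transfers it to newly made proteins. USP18 removes ISG15 from its targets and separately binds the interferon receptor subunit IFNAR2, which dampens the signal that induces the whole set. HERC6 is the main ISG15 ligase in mice, which lack a HERC5 gene, and its part in human cells is less clear.

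The interferon response reaches these genes through a transcription factor complex that holds STAT2 and IRF9 and binds a DNA element with paired GAAA repeats. The 250 bases before the annotated start were available from RefSeq (GRCh38.p14) for 4 members, ISG15, HERC5, HERC6 and UBE2L6, and were searched for GAAANNGAAA and its reverse complement TTTCNNTTTC, counting overlapping matches. The windows of ISG15 and HERC5 held matches and are shown so that the matches can be read in place, in capitals.
ISG15: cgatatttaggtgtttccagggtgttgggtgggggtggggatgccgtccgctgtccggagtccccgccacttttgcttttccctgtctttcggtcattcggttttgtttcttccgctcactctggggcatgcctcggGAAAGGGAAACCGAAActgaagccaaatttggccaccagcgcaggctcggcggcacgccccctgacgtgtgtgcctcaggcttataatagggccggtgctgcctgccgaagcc
HERC5: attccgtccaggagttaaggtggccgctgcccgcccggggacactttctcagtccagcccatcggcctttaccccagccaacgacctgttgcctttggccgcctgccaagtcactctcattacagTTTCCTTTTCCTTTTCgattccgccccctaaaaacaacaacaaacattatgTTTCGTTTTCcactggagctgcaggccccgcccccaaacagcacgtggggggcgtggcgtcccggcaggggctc
The ISG15 window is chr1:1013247-1013496 on the plus strand, with 2 overlapping matches between 113 and 98 bases before the start. The HERC5 window is chr4:88456869-88457118 on the plus strand, with 3 matches on the minus strand, of which 2 overlap between 125 and 110 bases before the start and 1 lies 74 to 65 bases before it. Among all 27305 genes with such a window 3.71% had a match. The windows of HERC6 and of both UBE2L6 starts did not hold these letters.

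Levels are TPM, the authors' measure of transcript abundance scaled for gene length and library total, so levels of different genes can be set side by side. TPM keeps no depth, so how many reads lie behind a value is not known. Per tumor, 13392 to 14218 genes were at 1 TPM or more. Control tumor 2 stood apart in its share of ribosomal protein transcripts, 27.0% of all TPM, against 21.4% to 22.3% in irradiated tumors and 19.8% and 20.5% in the other controls. Mitochondrially encoded transcripts took 11.7%, 10.6% and 11.4% of all TPM in irradiated tumors 1, 2 and 3, against 9.24%, 7.58% and 10.5% in the controls, so that share, like the members, was highest in irradiated tumor 1 and lowest in control tumor 2. The groups did not overlap in it, by a narrow margin. With mitochondrial and ribosomal protein genes left out, the log2 fold changes, irradiated minus control, were 2.01 for ISG15 and 1.58 for UBE2L6, against 1.97 and 1.53 with them. The line's markers were present, with VIM, a mesenchymal filament, at 3148 to 3685 TPM in irradiated tumors and 3797 to 5283 TPM in controls, and with the estrogen receptor ESR1 at no more than 0.32 TPM. ERBB2, a receptor tyrosine kinase, was at 32.7 to 34.3 TPM in irradiated tumors and 25.4 to 40.7 TPM in controls. A gene is said to have risen or fallen where limma's adjusted p over all 14140 tested genes was under 0.05. Fold changes are irradiated minus control on log2(TPM + 1), which understates changes of low genes.

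All 6 members averaged higher in irradiated than in control tumors, and 1 of them, UBE2L6, rose by the test. The median log2 fold change of the members was 1.42, against -0.056 over all tested genes. Higher calls made up 1.37% of all tested genes. In 5 of the 6 members, all except UBA7, every irradiated tumor lay above every control, which held in that direction for 11.6% of tested genes. All 6 members passed the filter of a mean of at least 1 TPM, and all 6 had an unadjusted p under 0.05, as did 2896 of the tested genes. In bulk tumors, more cells that express a gene and more RNA per cell cannot be told apart.

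**Figure D1:**
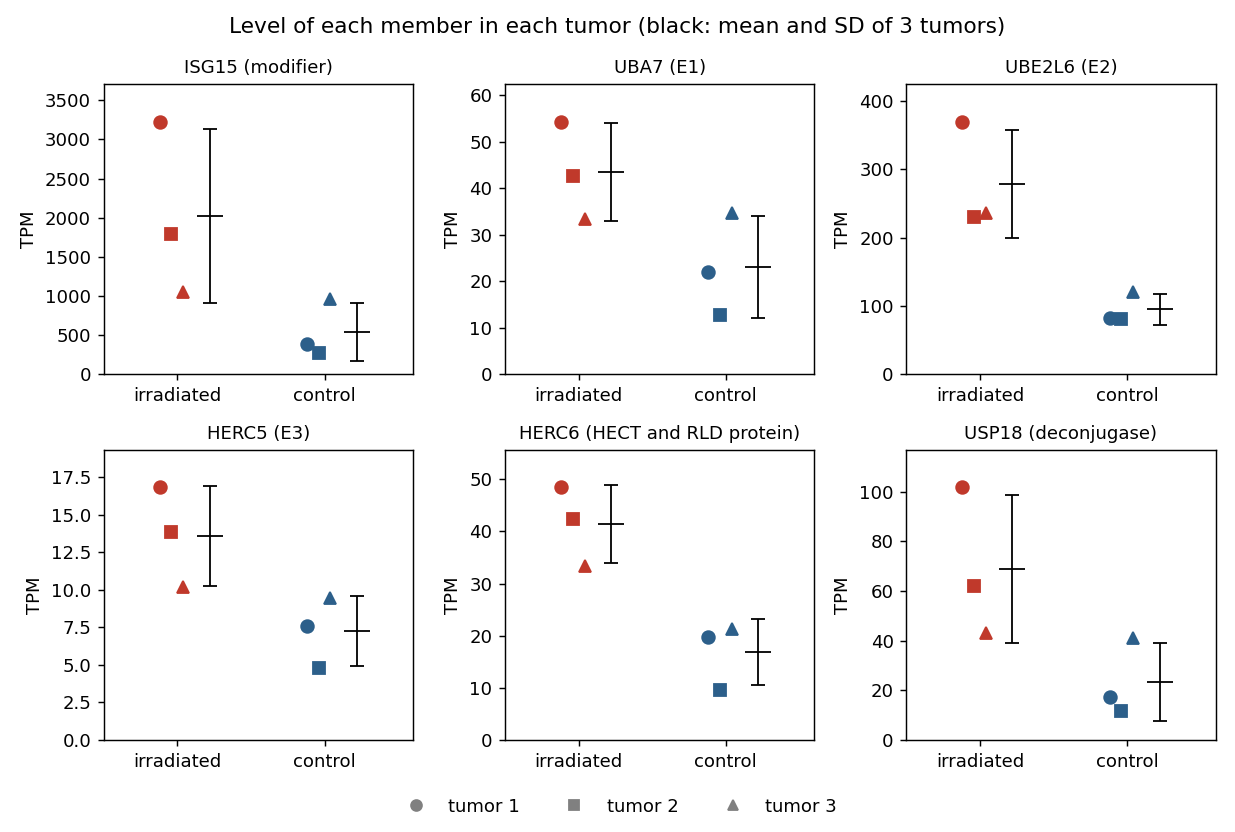
TPM of each member in irradiated (red, left) and control (blue, right) tumors, with one symbol per tumor and the mean and SD of 3 tumors in black; each axis starts at 0. UBE2L6 has the clearest gap, with irradiated tumors at 230 to 370 TPM and controls at 81.1 to 120 TPM, while control tumor 3 comes close to irradiated tumor 3 for ISG15, HERC5 and USP18 and lies above it for UBA7.

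ISG15, the modifier, was the most abundant member in every tumor. It stood at 3230, 1792 and 1048 TPM in irradiated tumors 1, 2 and 3, against 381, 273 and 962 TPM in control tumors 1, 2 and 3. The groups did not overlap, but control tumor 3 reached 91.8% of the lowest irradiated tumor. The means were 2023 ± 1109 TPM in irradiated and 539 ± 371 TPM in control tumors (SD, n = 3 each), a 3.76-fold ratio. The log2 fold change of 1.97 (SE 0.51, 95% interval 0.80 to 3.14) had a limma adjusted p of 0.0817 and so did not pass. The gene (ENSG00000187608) lies on chromosome 1 from 1001138 to 1014540 in GRCh38, and its exons overlap AL645608.3 on the other strand, whose reads cannot be told apart from those of ISG15 where strand was not used.

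UBA7, the enzyme that activates ISG15, was far less abundant and had overlapping groups. Its level was 54.4, 42.6 and 33.5 TPM in irradiated tumors 1, 2 and 3, against 21.9, 12.7 and 34.6 TPM in the controls. Control tumor 3 lay slightly above irradiated tumor 3. The means of 43.5 ± 10.5 TPM in irradiated and 23.1 ± 10.99 TPM in control tumors gave a log2 fold change of 0.96 (SE 0.34, 95% interval 0.20 to 1.73, limma adjusted p = 0.156). UBA7 (ENSG00000182179) is on chromosome 3, from 49805207 to 49813946.

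UBE2L6, the conjugating enzyme, was the second most abundant member in every tumor and the only one to pass the test. It was at 370, 230 and 235 TPM in irradiated tumors 1, 2 and 3, against 82.8, 81.1 and 120 TPM in the controls. Here control tumor 3 reached only 52.5% of the lowest irradiated tumor, the widest gap among the members. The means were 278 ± 79.6 TPM in irradiated and 94.8 ± 22.3 TPM in control tumors (n = 3 each), a 2.94-fold ratio. The log2 fold change was 1.53 (SE 0.23, 95% interval 1.01 to 2.06, limma adjusted p = 0.0159). The call was lost without control tumor 1 (log2 fold change 1.45, adjusted p = 0.0709) and kept without any other single tumor. The gene (ENSG00000156587) spans 57551656 to 57568284 on chromosome 11.

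HERC5 and HERC6, neighbours on chromosome 4 that share a HECT ligase domain and repeats like those of RCC1, differed in level. HERC5, the human ISG15 ligase, was the least abundant member in every tumor, at 16.8, 13.8 and 10.2 TPM in irradiated tumors 1, 2 and 3 and 7.56, 4.78 and 9.43 TPM in the controls. HERC6 was at 48.4, 42.5 and 33.4 TPM in irradiated tumors and 19.8, 9.61 and 21.3 TPM in the controls. Neither gene's groups overlapped, with control tumor 3 at 92.6% of the lowest irradiated tumor for HERC5 and 63.8% for HERC6. HERC5 had a log2 fold change of 0.84 (SE 0.27, limma adjusted p = 0.133), the smallest of the members, on means of 13.6 ± 3.32 TPM in irradiated and 7.26 ± 2.34 TPM in control tumors. HERC6 had one of 1.30 (SE 0.29, adjusted p = 0.0559), on means of 41.4 ± 7.57 TPM in irradiated and 16.9 ± 6.37 TPM in control tumors. HERC6 missed the threshold narrowly and passed it under 6 of 16 alternatives, among them all 3 other scalings (adjusted p from 0.0295). HERC6 (ENSG00000138642) lies from 88378739 to 88443111 and HERC5 (ENSG00000138646) from 88457117 to 88506163, both on the plus strand. HERC6 shares 0.804% of its 50-base stretches with HERC3, and HERC5 shares none with another annotated gene.

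USP18, the protease that removes ISG15, followed ISG15 closely. It was at 102, 62.0 and 43.1 TPM in irradiated tumors 1, 2 and 3, against 17.3, 11.8 and 41.3 TPM in the controls. Control tumor 3 reached 95.8% of the lowest irradiated tumor, so the groups were separated by a narrow margin. The means of 68.9 ± 29.9 TPM in irradiated and 23.4 ± 15.7 TPM in control tumors gave a log2 fold change of 1.62 (SE 0.45, 95% interval 0.58 to 2.65, limma adjusted p = 0.0972). Without control tumor 3 it passed (log2 fold change 2.11, adjusted p = 0.0480). USP18 (ENSG00000184979) spans 18149899 to 18177397 on chromosome 22.

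The value of USP18 is uncertain, because part of its sequence occurs again in USP41, a related gene from 20350578 to 20390758 on the same chromosome. Of the 50-base stretches of the longest annotated USP18 transcript (2129 bases), 23.0% also occur in USP41, and 35.1% of those of USP41 (1188 bases) occur in USP18. Counting all other annotated genes, 48.2% of the stretches of USP41 occur elsewhere, 12.3% in AC023490.1, so the values of USP41, its share of the pair and the sum of both are uncertain too. USP41 itself was at 158, 71.5 and 24.8 TPM in irradiated tumors 1, 2 and 3, against 1.61, 14.8 and 4.17 TPM in the controls. The groups did not overlap, and USP41 took 60.8%, 53.6% and 36.5% of the summed TPM of the pair in irradiated tumors, against 8.51%, 55.8% and 9.18% in the controls. Its log2 fold change of 3.48 (SE 0.76) had a limma adjusted p of 0.0527. It ranged from 2.85 without irradiated tumor 1 to 4.18 without control tumor 2, where it passed (adjusted p = 0.0293), and was 2.88 without control tumor 1 and 4.17 without irradiated tumor 3. The 2 genes together were at 259, 133 and 67.9 TPM in irradiated tumors and 18.9, 26.6 and 45.4 TPM in the controls. With both summed into 1 row the log2 fold change was 2.19 (SE 0.47, adjusted p = 0.0514).

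**Figure D2:**
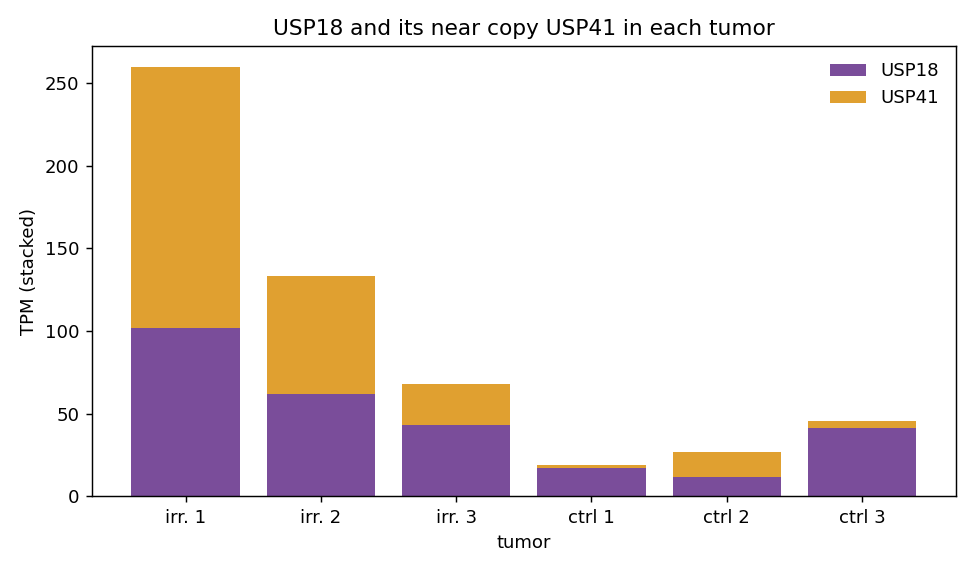
TPM of USP18 (purple) and USP41 (orange), stacked, in each irradiated (irr.) and control (ctrl) tumor. The stacks reach 259, 133 and 67.9 TPM in irradiated tumors and stay at or below 45.4 TPM in controls, and the USP41 portion is small in control tumors 1 and 3 but not in control tumor 2.

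The order of levels was nearly the same in all tumors. ISG15 came first, UBE2L6 second and HERC5 last in all 6. USP18 had rank 3 in the irradiated tumors and in control tumor 3, rank 4 in control tumor 2 and rank 5 in control tumor 1. UBA7 and HERC6 were close neighbours, whose means differed by less than the SD of either gene in both groups. ISG15 made up 84.5%, 82.1% and 74.7% of the summed TPM of the 6 genes in irradiated tumors 1, 2 and 3, against 71.8%, 69.5% and 80.9% in the controls. The sum itself was 3821, 2182 and 1404 TPM in irradiated tumors and 530, 393 and 1189 TPM in the controls.

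The members varied together from tumor to tumor within each group as well as between groups. In the controls, all 6 were highest in control tumor 3 and lowest in control tumor 2. In the irradiated group, all 6 were highest in tumor 1, and all except UBE2L6 were lowest in tumor 3. Over the 15 pairs of members, Pearson's r of log2(TPM + 1) over the 6 tumors ran from 0.876 (UBA7 with UBE2L6) to 0.997 (ISG15 with USP18), with a median of 0.953. After each group's mean was taken out, r ran from 0.588 (UBE2L6 with HERC6) to 0.993 (again ISG15 with USP18), with a median of 0.933. These are descriptions over 6 tumors that share the difference between the groups and the scaling of each library. ISG15 varied most, 3.08-fold among irradiated tumors and 3.52-fold among controls, and UBE2L6 varied 1.61-fold among irradiated tumors and 1.49-fold among controls.

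**Figure D3:**
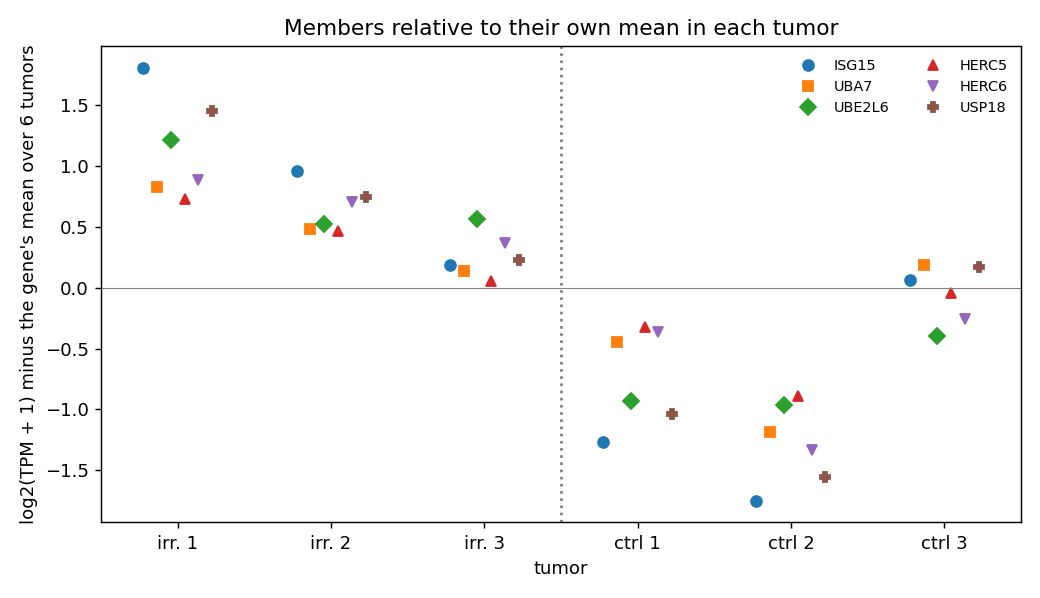
log2(TPM + 1) of each member minus that gene's own mean over all 6 tumors, for irradiated (irr., left of the dotted line) and control (ctrl) tumors, with one symbol per gene. All 6 genes lie above 0 in the irradiated tumors and below 0 in control tumors 1 and 2, while in control tumor 3 ISG15, UBA7 and USP18 lie slightly above 0.

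ISG15 was compared with each partner within each tumor, which removes the library's scaling. The TPM ratio of ISG15 to USP18 was 31.8, 28.9 and 24.3 in irradiated tumors 1, 2 and 3, against 22.02, 23.3 and 23.3 in the controls, where it was nearly constant although both genes varied more than 3.5-fold. The ratio of ISG15 to UBA7 was 59.4, 42.0 and 31.3 in irradiated tumors, against 17.4, 21.5 and 27.8 in the controls. The groups did not overlap in either ratio. For HERC5 the ratio was 192, 130 and 103 in irradiated tumors and 50.4, 57.2 and 102 in the controls, separated by the narrowest margin. On the scale of log2(TPM + 1) these 3 ratios were higher in irradiated tumors by 0.35 (USP18), 1.01 (UBA7) and 1.13 (HERC5). Each had an exact two-sided permutation p of 0.1, the smallest that 3 against 3 tumors allow, and an adjusted p of 0.167 over the 5 ratios. The ratios of ISG15 to UBE2L6 and HERC6 overlapped between the groups, with differences of 0.44 (exact permutation p = 0.5, adjusted p = 0.5) and 0.67 (exact permutation p = 0.3, adjusted p = 0.375). With USP41 added to USP18, an alternative chosen after seeing the data, the difference turned to -0.22 (exact permutation p = 0.5), so the direction for USP18 depends on whether USP41 is counted with it. The near-constant ratio in the controls is also lost then, with log2 ratios of 4.26, 3.31 and 4.37 (SD 0.58, against 0.065 for USP18 alone).

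**Figure D4:**
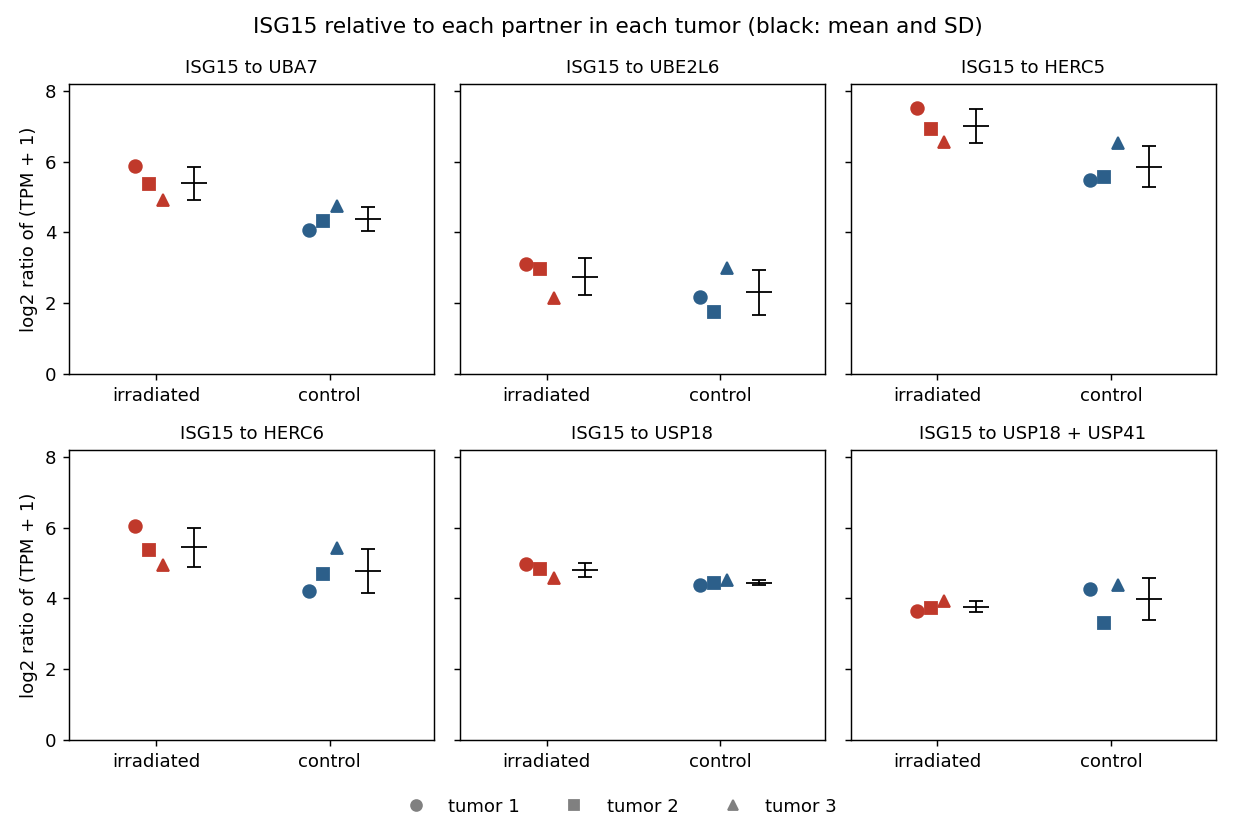
log2 of the ratio of ISG15 to each partner, (TPM + 1) over (TPM + 1), in irradiated (red, left) and control (blue, right) tumors, with one symbol per tumor and the mean and SD of 3 tumors in black. The ratios to UBA7, HERC5 and USP18 are higher in every irradiated tumor, by 1.01, 1.13 and 0.35 on average, and the ratio to USP18 and USP41 together is not.

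Among 7 other tested ligases and proteases reported to act on ISG15, 1 was called, and it fell. ARIH1, another ligase that can transfer ISG15, fell to 15.7, 14.5 and 15.4 TPM in irradiated tumors 1, 2 and 3, against 34.5, 24.3 and 34.97 TPM in the controls (log2 fold change -0.98, limma adjusted p = 0.0307). TRIM25, a ligase that is itself induced by interferon, had a log2 fold change of 0.39 (adjusted p = 0.500). Calls in either direction made up 2.98% of tested genes, and lower calls 1.61%. ARIH1 kept its call without control tumor 2 and lost it without any other single tumor (adjusted p up to 0.107). Of 6 other proteases with reported activity on ISG15, 5 were tested and none was called in limma, with 1 at an unadjusted p under 0.05. That gene was USP16, which also cleaves ubiquitin from histone H2A, at -0.58 (adjusted p = 0.147). USP13 was at 0.68 (adjusted p = 0.336) and USP5 at -0.26 (adjusted p = 0.474). The median of the 5 was -0.24.

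Relatives of UBE2L6 and of the HERC proteins in the ubiquitin system were not called in limma. UBE2L3, the ubiquitin-conjugating relative of UBE2L6, was at 66.5, 71.4 and 77.3 TPM in irradiated tumors and 68.9, 66.2 and 76.6 TPM in the controls (log2 fold change 0.024, 95% interval -0.28 to 0.33). HERC3, the next small HERC ligase, was at -0.22 (95% interval -0.67 to 0.23). Of 4 HERC ligases outside the members, HERC3 included, none was called in limma or had an unadjusted p under 0.05. HERC1 was at 0.52 (adjusted p = 0.298) and HERC4 at -0.37 (adjusted p = 0.485). Of 13 tested E2 enzymes of the same families or of other modifiers, 0 were called in limma and 3 had an unadjusted p under 0.05, all of them negative, among them ATG10, of autophagy, at -0.78 (adjusted p = 0.105) and the ubiquitin enzyme UBE2D2 at -0.43 (adjusted p = 0.202). Their median was -0.21.

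Of 9 other E1 subunits, 1 fell. NAE1, a subunit of the NEDD8-activating enzyme, was at 23.4, 23.8 and 21.5 TPM in irradiated tumors and 50.2, 34.1 and 43.7 TPM in the controls (log2 fold change -0.85, limma adjusted p = 0.0413). SAE1, of the SUMO-activating enzyme, was at -0.43 (adjusted p = 0.147). The median of the E1 subunits was -0.16. Of 13 other modifiers, 1 rose, the polyubiquitin gene UBB, with 2793, 2931 and 2959 TPM in irradiated tumors and 1684, 1863 and 2131 TPM in the controls (log2 fold change 0.62, adjusted p = 0.0421). SUMO2 was at -0.52 (adjusted p = 0.0775) and RPS27A, a ribosomal protein fused to ubiquitin, at -0.49 (adjusted p = 0.0985), and the median was -0.066. NAE1 and UBB kept their calls without control tumor 2 and lost them without any other single tumor (adjusted p up to 0.134 for NAE1 and 0.137 for UBB).

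The genes that carry the interferon signal to the members were higher on average in part, and none of them passed the test. Of 7 genes of type I interferon signalling, 0 were called in limma and 3 had an unadjusted p under 0.05, STAT2 and IRF9 among them. STAT2 was at 48.8, 44.8 and 34.7 TPM in irradiated tumors 1, 2 and 3, against 26.8, 15.4 and 35.6 TPM in the controls (log2 fold change 0.76, limma adjusted p = 0.184). Control tumor 3 lay slightly above irradiated tumor 3. IRF9, its DNA-binding partner, was at 237, 188 and 156 TPM in irradiated tumors, against 124, 82.2 and 142 TPM in the controls, without overlap (log2 fold change 0.75, adjusted p = 0.123). IFNAR2, the receptor subunit that USP18 binds, was at 0.093 (adjusted p = 0.802), and SKP2, which marks USP18 for breakdown, at -0.11 (adjusted p = 0.845).

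Of 6 interferon regulatory factors 0 were called in limma and 3 had an unadjusted p under 0.05. IRF7, the factor that amplifies interferon production, was at 191, 114 and 77.9 TPM in irradiated tumors, against 35.4, 32.0 and 59.3 TPM in the controls (log2 fold change 1.53, adjusted p = 0.0549), without overlap. IRF1 was at 0.95 (adjusted p = 0.0755) and IRF2 at 0.72 (adjusted p = 0.134). Of 21 interferon genes in the table, 18 were listed at 0 in all 6 tumors, IFNB1 and each type I interferon among them. The 3 others encode lambda interferons, and none reached the filter. IFNL1 was at 2.55, 1.96 and 0.38 TPM in irradiated tumors 1, 2 and 3 and 0.13, 0.12 and 0.39 TPM in the controls, with overlap. It was highest in irradiated tumors 1 and 2, where ISG15 was also highest, but irradiated tumor 3 lay slightly below control tumor 3. IFNL2 was at 0.87, 0.08 and 0.07 TPM in irradiated tumors and listed at 0 in the controls. IFNL3 was at 0.49, 0.12 and 0.11 TPM in irradiated tumors and 0, 0 and 0.15 TPM in the controls, with overlap.

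Genes of proteins that are known to carry ISG15 and are mostly induced by interferon themselves had fold changes above 0 throughout. Of 8 tested, 1 rose, 8 had a fold change above 0, against 44.3% of all tested genes, and 6 had an unadjusted p under 0.05, with a median of 1.31. DDX58, the RNA sensor RIG-I, was at 69.6, 48.7 and 32.8 TPM in irradiated tumors and 16.7, 10.5 and 22.7 TPM in the controls (log2 fold change 1.54, limma adjusted p = 0.0485), a call lost without any single tumor (adjusted p up to 0.150). IFIT1, which binds foreign RNA, and its partner IFIT3 were at 2.35 (adjusted p = 0.0534) and 1.77 (adjusted p = 0.0843). ITGB2, a subunit of the integrin LFA-1 that serves as a receptor for secreted ISG15, was at 3.08, 2.72 and 1.70 TPM in irradiated tumors and 1.32, 0.92 and 1.46 TPM in the controls (adjusted p = 0.225), while its partner subunit ITGAL stayed at or below 0.64 TPM and was not tested.

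**Figure D5:**
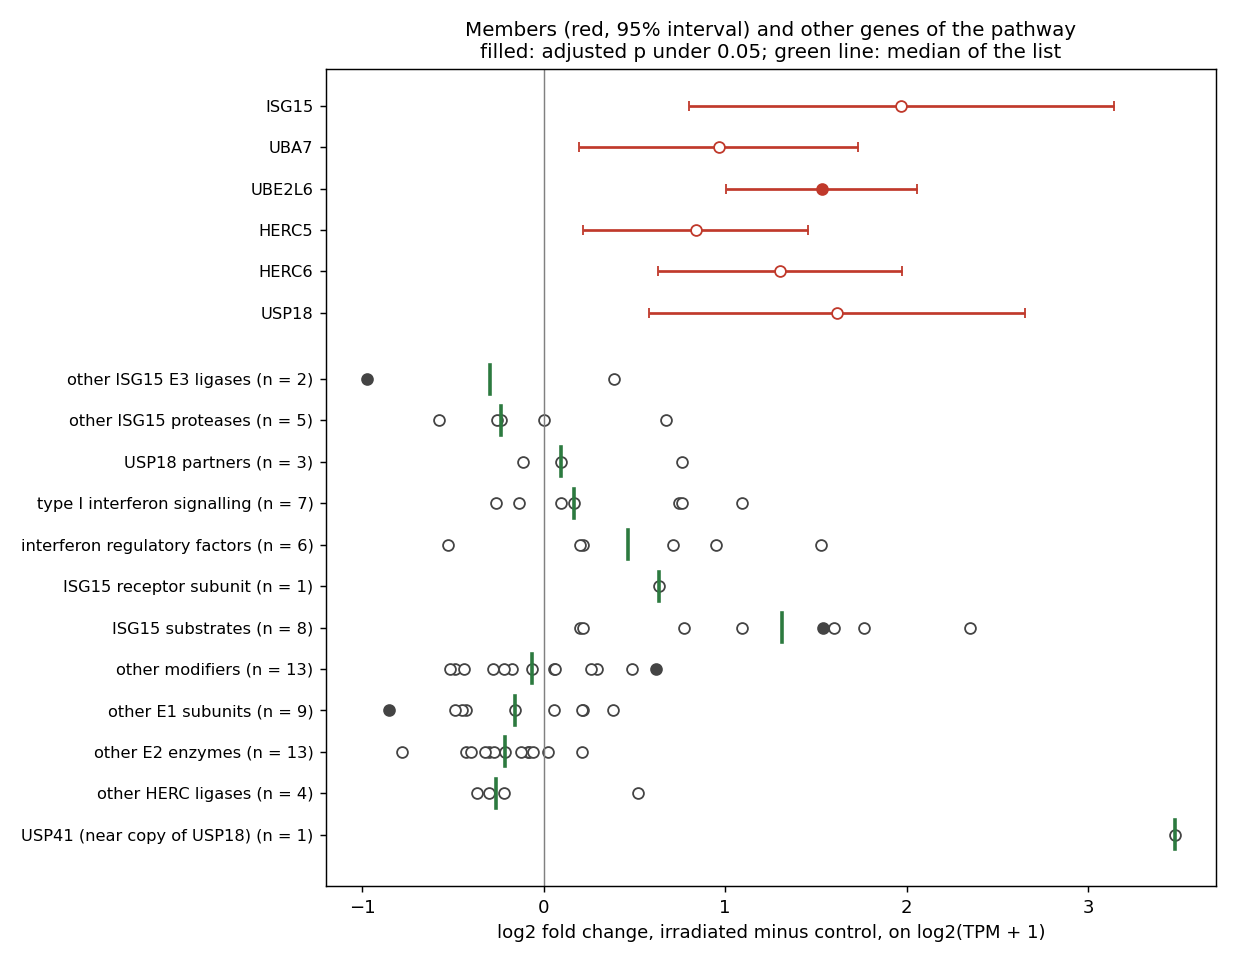
log2 fold change, irradiated minus control, of the 6 members (red, with 95% intervals) and of other genes of the pathway grouped by list (one circle per gene, green line at the list's median); filled symbols passed an adjusted p of 0.05. The members lie between 0.84 and 1.97, and the medians of the other modifiers, E1 subunits, E2 enzymes and HERC ligases lie between -0.26 and -0.066.

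Among all other tested genes, the 8 whose log2(TPM + 1) over the 6 tumors was most like the mean standardized profile of the members were IFIT2 (Pearson's r = 0.998), C4BPB (0.996), EDEM2 (0.993), LAP3 (0.993), IFI27 (0.993), DDX58 (0.992), SP110 (0.992) and IFIT3 (0.992). IFIT2 was at 85.4, 58.1 and 40.6 TPM in irradiated tumors and 17.9, 9.90 and 27.3 TPM in the controls. IFI27, an interferon-induced mitochondrial protein, rose to 2221, 1573 and 1314 TPM in irradiated tumors, against 553, 422 and 878 TPM in the controls (log2 fold change 1.49, limma adjusted p = 0.0342). IFI27 kept its call without control tumor 2 or 3 and lost it without any other single tumor (adjusted p up to 0.119), and also with no filter, without trend and with the replicate block (adjusted p = 0.137, 0.0660 and 0.0571). C4BPB, a chain of the complement regulator C4b-binding protein, reached 8.24 TPM in irradiated tumor 1 and was at 2.64 TPM in control tumor 2. These r values rest on 6 tumors and are given without a test.

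Markers of other cells were set beside the members. Of 13 macrophage and monocyte markers, TYROBP, C1QA and C1QB were listed at 0 in all tumors. CD68, a lysosomal protein that tumor cells also make, was at 187, 126 and 91.2 TPM in irradiated tumors 1, 2 and 3 and 94.2, 74.9 and 84.8 TPM in the controls. The other 12 markers summed to 5.93, 12.9 and 6.34 TPM in irradiated tumors and 8.08, 8 and 20.7 TPM in the controls. This sum was highest in control tumor 3, the control with the highest ISG15. It was lowest in irradiated tumor 1, which had the highest ISG15 of all tumors. The 8 dendritic cell markers summed to 21.7, 18.9 and 21.5 TPM in irradiated tumors and 19.6, 18.9 and 20.9 TPM in the controls, and overlapped. Of these markers, CLEC9A, FLT3 and XCR1 stayed at or below 0.04 TPM in all tumors. Most of each sum was BATF3, at 20.2, 18.1 and 19.3 TPM in irradiated tumors and 17.6, 16.9 and 18.6 TPM in the controls. IRF8 went the other way, at 1.29, 0.49 and 1.66 TPM in irradiated tumors and 1.79, 1.96 and 2.29 TPM in the controls, without overlap. Its limma adjusted p was 0.344. The plasmacytoid markers CLEC4C and LILRA4 were listed at 0 in all tumors. IL3RA, a receptor subunit also found on plasmacytoid cells, was higher without overlap. It was at 0.18, 0.27 and 0.49 TPM in irradiated tumors and 0.16, 0.10 and 0.05 TPM in the controls, too low to be tested. The marker sums of lymphocytes and of adipocytes were low in all tumors and higher in every irradiated tumor than in any control. The 10 markers of T, B and natural killer cells summed to 3.19, 5.56 and 3.73 TPM in irradiated tumors and 2.10, 1.92 and 2.27 TPM in the controls. Among these, MS4A1 and GZMB were listed at 0 in all tumors, and CD3D was at 0.74, 4.44 and 1.35 TPM in irradiated tumors and 0.29, 0.34 and 0.64 TPM in the controls. CD8A was at 1.74, 0.86 and 1.22 TPM in irradiated tumors and 0.70, 0.63 and 0.49 TPM in the controls. CD3D and CD8A were thus higher in every irradiated tumor, but the list did not move as a whole. NCAM1 went the other way, at 0.51, 0.17 and 0.37 TPM in irradiated tumors and 1.07, 0.86 and 1.12 TPM in the controls. CD3E, CD4, KLRD1 and NKG7 overlapped between the groups. The 5 adipocyte markers summed to 3.74, 1.57 and 1.48 TPM in irradiated tumors and 0.41, 0.99 and 0.35 TPM in the controls, with ADIPOQ and LEP listed at 0 in all. CIDEC was the only one whose groups did not overlap, at 2.74, 0.88 and 0.94 TPM in irradiated tumors and 0.21, 0.12 and 0.22 TPM in the controls. PLIN1 and FABP4 overlapped. Neutrophil markers summed to at most 0.18 TPM in irradiated tumors and 0.17 TPM in the controls, endothelial markers to 4.77 to 22.3 TPM in irradiated tumors and 4.10 to 8.74 TPM in the controls, and erythroid markers to 0.11 to 0.65 TPM in irradiated tumors and 0.29 to 4.82 TPM in the controls, all with overlap. Of single markers, endothelial PECAM1 was higher, at 0.59, 1.81 and 0.56 TPM in irradiated tumors and 0.45, 0.20 and 0.30 TPM in the controls. Erythroid ALAS2 was lower, at 0.08, 0.11 and 0 TPM in irradiated tumors and 0.29, 1.44 and 1.75 TPM in the controls. Both were too low to be tested, and the other markers of these lists overlapped. Fibroblast markers summed to 134, 217 and 154 TPM in irradiated tumors, against 479, 533 and 1008 TPM in the controls, and 3 of the 7 tested fell. These 3 were the collagen genes COL1A1, COL1A2 and COL3A1, which made up most of the sums. FAP and POSTN were lower without overlap and not called, and DCN overlapped. PDGFRB went the other way on average, with overlap (log2 fold change 0.95, limma adjusted p = 0.211). Skeletal muscle markers summed to 2.37, 143 and 2.79 TPM in irradiated tumors, against 202, 271 and 545 TPM in the controls, with 3 of 11 tested that fell. Over all tested genes, lower calls made up 1.61%. The part of such cells in the members' values was not tested. Values of mouse RNA in these markers depend on how far mouse reads align to human genes, which is not known here.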

How the data were processed

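The values are TPM per gene, as deposited by the authors, with 1 column for each of 6 tumors, and none was left out. Per the submitters' processing notes, HISAT2, StringTie, RSEM and the build hg38 were used. Their versions and order, the annotation release, the handling of strand and of mouse reads are not given. Per the labels' protocols, the TruSeq RNA kit of Illumina was used on total RNA. Because depth cannot be had from TPM, neither counting intervals nor count models apply.

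The comparison used limma 3.58.1 (R 4.3.3; linear fit, empirical Bayes with an intensity trend) on log2(TPM + 1) of the 14140 genes averaging 1 TPM or more. Group was the sole term, tests were two-sided, and p was adjusted by Benjamini-Hochberg over all of these genes at 0.05. In data simulated for this comparison (14140 genes, 5 draws, 200 changed genes each) the fit found 33.4% of 2-fold and 81.4% of 4-fold changes, and 5.28% of its calls were false. The simulated noise was independent between genes, which that of real tumors need not be, so these rates may not carry over to the data. Ratios between members were compared with an exact permutation test. Coordinates and shared 50-base stretches came from GENCODE release 29 (GRCh38, the assembly of hg38) and promoter windows from RefSeq. The members and lists were chosen with earlier results of these data known. Named are all members, called genes of each list with up to 3 of the smallest p, UBE2L3, HERC3 and USP41, and the 8 genes most like the members. Some genes that this rule takes are not reported here. IFNL2, IFNL3, ITGAL and single cell type markers were picked after their values were seen. Alternatives were pseudocounts of 0.1 and 5 TPM, no filter or a minimum mean of 5 TPM, 3 other scalings, limma without trend and with robust estimates, a replicate block, leaving out single tumors, and USP18 summed with USP41.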

Additional observations from a re-analysis of the deposited data

How the results depend on the processing

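Most alternatives could not turn the sign of a member's fold change. The filters, trend, robust estimates and replicate block leave the fold change itself as it was. Where groups do not overlap, neither another pseudocount nor leaving out single tumors can reverse it. With that limit, all 6 members kept a fold change above 0 under each of 16 alternatives. UBE2L6 passed under 14 of them (adjusted p from 0.00762 to 0.0728, lost with no filter and without control tumor 1), HERC6 under 6, USP18 under 1 of 17, and ISG15, UBA7 and HERC5 under 0 (adjusted p from 0.0502, 0.0909 and 0.0786). The number of members called was 0 with no filter, and 2 with a minimum mean of 5 TPM, with median of ratios scaling, with quantile normalization, without mitochondrial and ribosomal protein genes and with robust estimates, and ranged from 0 to 2 with single tumors left out (0 without control tumor 1, and 2 without control tumor 2 or 3). Of all genes, 133 were called with no filter, 279 without trend and 185 with the replicate block, and 127 to 791 with single tumors left out, where the test has fewer samples (791 without control tumor 2). Of the interferon regulatory factors 1 was called with a minimum mean of 5 TPM, with quantile normalization and without mitochondrial and ribosomal protein genes, and 0 to 1 without single tumors, and USP41 was called (1) with a minimum mean of 5 TPM, with 0 to 1 without single tumors. ARIH1 and NAE1 were not called (0) with no filter, without trend or with the replicate block, and their lists held 0 to 1 calls without single tumors. Of the other modifiers 0 were called with a pseudocount of 5 TPM, no filter, median of ratios, no trend or the replicate block, and 0 to 2 without single tumors. Of the proteins that carry ISG15, 2 were called with a pseudocount of 0.1 TPM, a minimum mean of 5 TPM and each other scaling, 0 with a pseudocount of 5 TPM, no filter, no trend or the replicate block, and 0 to 1 without single tumors. Summed with USP41, the difference in the ratio of ISG15 to USP18 turned to -0.22. With quantile normalization the exact permutation p of the ratios of ISG15 to HERC5 and USP18 went from 0.1 to 0.2. The cause of these changes was not tested. Same-numbered tumors did not deviate together (r of -0.043, -0.046 and -0.059 over all tested genes), and no tumor correlated best with its own number. With 3 tumors per group this check cannot exclude a link by number, and the labels state none. UBE2L6 stayed called with the replicate block (limma adjusted p = 0.0333).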
